A study of Mus musculus with 26 samples.

Results

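The 10 genes described here encode transcription factors that specify and maintain photoreceptors, *Nrl*, *Crx*, *Nr2e3*, *Casz1*, *Otx2*, *Rorb*, *Mef2d*, *Esrrb*, *Neurod1* and *Prdm1*. They were chosen by name, from what these factors are known for and with earlier results of these data known, out of the 37991 Ensembl genes of the count table, and each symbol matched 1 gene. Their expression was measured by RNA-seq of polyA RNA from retinas of rd10 mice, which carry a mutation of the rod phosphodiesterase gene *Pde6b* and lose their rods in the weeks after birth. Mice received intraperitoneal injections from postnatal day (PN) 9 until PN24, when the retinas were taken, and the injections were of an inhibitor of a chromatin-modifying enzyme or, in the controls, of saline. Every library was compared with the controls of its own experiment, and no library served in more than 1 experiment.

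Whole retinas were taken from 4 control mice and 2 mice given DZNep, labelled an EZH2 inhibitor, from 3 control mice and 3 given UNC1999, also labelled an EZH2 inhibitor, from 2 control mice and 2 given UNC0642, an inhibitor of the histone methyltransferases G9A and GLP, and from 3 control mice and 3 given Romidepsin, an inhibitor of histone deacetylases. In the fifth experiment rods were sorted by their EGFP from 2 control and 2 GSK2879552-injected littermates, homozygotes of a cross of rd10 with B6.Cg-Tg(Nrl-EGFP)1Asw/J; GSK2879552 inhibits the histone demethylase LSD1. The EGFP of these mice is driven by the *Nrl* promoter, so 1 member of the set also governed the sort. The genotype label of the retinas is B6.CXB1-Pde6brd10/Jrd10, except that in the DZNep and UNC1999 experiments the number at its end goes up from 1 library to the next, while the design text names rd10 for all. The methods of the study give saline as the solvent of every inhibitor except UNC1999, which was dissolved with DMSO, PEG300 and Tween-80. For the UNC1999 controls the study names saline where it describes the RNA-seq, and diluent where it describes the retina sections. If the controls received saline, UNC1999 and its solvent cannot be told apart. The library names place the Romidepsin, UNC0642 and DZNep experiments in 1 series, UNC1999 in another and the sorted rods in one of their own.

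OTX2 starts the photoreceptor programme in postmitotic precursors and switches on *Crx*, *Prdm1* and other genes, PRDM1 holds precursors back from the bipolar fate, and RORB acts above *Nrl*, the factor that decides for rod over cone. NRL in turn activates *Nr2e3*, which represses cone genes, and works with CRX on the genes of the rod outer segment. The proteins bind each other's genes as well as a shared set of target genes, and mutations in several of them cause inherited retinal degeneration.

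The RefSeq promoters of the members are shown because these factors recognise short motifs in photoreceptor genes, their own included. All 10 members had an entry, 16 in all, on build GRCm38.p6, and the 250 bases before each transcription start were searched on both strands for TAATCC, the core bound by CRX and OTX2, TGCTGA, a half-site of NRL, AGGTCA, the half-site of nuclear receptors such as NR2E3, RORB and ESRRB, and CAGATG, an E-box of the kind that NEUROD1 binds. No match of a motif overlapped a match of another. Capitals mark the matches, in either orientation, in 4 promoters written 5′ to 3′ on the strand of the gene. The promoter of *Crx* (chr7:15879956-15880205, minus strand) held TAATCC on the opposite strand 94 and 21 bases before the start. Of the 2 entries of *Casz1*, that at chr4:148889097-148889346 on the plus strand held TAATCC 147 and 33 bases and AGGTCA 73 bases before its start. The promoter of *Nrl* (chr14:55524253-55524502, minus strand) held CAGATG at 19 bases, and that of *Neurod1* (chr2:79456637-79456886, minus strand) held TGCTGA, on the opposite strand, at 50 and 44 bases.
Crx: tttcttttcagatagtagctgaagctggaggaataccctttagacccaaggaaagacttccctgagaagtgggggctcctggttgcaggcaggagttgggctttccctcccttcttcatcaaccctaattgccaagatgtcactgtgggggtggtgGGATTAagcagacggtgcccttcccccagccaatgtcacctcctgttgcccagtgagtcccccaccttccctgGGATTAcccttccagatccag
Casz1: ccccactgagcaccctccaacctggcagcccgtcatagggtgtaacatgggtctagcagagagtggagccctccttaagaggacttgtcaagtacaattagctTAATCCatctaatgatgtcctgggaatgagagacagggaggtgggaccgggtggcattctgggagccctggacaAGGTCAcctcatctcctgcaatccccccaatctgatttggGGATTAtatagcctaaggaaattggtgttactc
Nrl: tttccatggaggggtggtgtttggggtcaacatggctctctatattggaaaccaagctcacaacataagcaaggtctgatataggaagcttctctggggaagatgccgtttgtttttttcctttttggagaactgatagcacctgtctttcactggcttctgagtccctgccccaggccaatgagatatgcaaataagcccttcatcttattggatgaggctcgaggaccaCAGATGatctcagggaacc
Neurod1: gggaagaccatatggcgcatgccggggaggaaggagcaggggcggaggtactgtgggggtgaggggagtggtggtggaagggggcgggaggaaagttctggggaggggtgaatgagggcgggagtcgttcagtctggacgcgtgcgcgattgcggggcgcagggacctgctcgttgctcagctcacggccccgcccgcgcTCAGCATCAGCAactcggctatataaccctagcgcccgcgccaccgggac

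TAATCC was found in 3 of the 16 entries (18.8%), of *Crx*, of *Casz1* and of *Otx2*, where it lay 211 bases before the start, and in 6.25% of all 32851 promoters. TGCTGA was in 4 entries (25%), of *Otx2*, *Rorb*, *Mef2d* and *Neurod1*, against 16.1% of all promoters. AGGTCA was in 1 entry, of *Casz1* (6.25%, against 14.0%) and CAGATG in 2, of *Nrl* and *Otx2* (12.5%, against 14.4%). The single entries of *Nr2e3* and *Prdm1* and both entries of *Esrrb* held none of the 4 motifs in this window. A match describes the letters only and is not evidence of binding.

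In the control retinas *Crx* and *Nrl* were the most abundant of the 10 transcripts and *Prdm1* the least, by RPKM, reads per exon length and library size, in the 12 control retinas of the 4 experiments. The median was 193 RPKM for *Crx*, 191 for *Nrl*, 88.2 for *Mef2d*, 88.0 for *Neurod1*, 62.8 for *Nr2e3*, 52.7 for *Otx2*, 29.2 for *Esrrb*, 17.9 for *Rorb*, 15.0 for *Casz1* and 2.02 for *Prdm1*. The ranges over the 12 retinas of neighbours in this order overlapped, apart from *Casz1*, at 11.8 to 19.3 RPKM, and *Prdm1*, at 1.33 to 2.61. The lowest count of any member in any retina was 102 reads, of *Prdm1*, so all 10 passed the filter on low counts in every experiment. The libraries held 13732959 to 36354094 counted reads for retinas and 7289460 to 19864491 for sorted rods.

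Control levels of some members varied widely between mice and others hardly at all. Between the lowest and the highest of the 12 control retinas *Esrrb* differed 4.40-fold and *Nrl* 4.24-fold, whereas *Rorb* differed 1.31-fold and *Otx2* 1.39-fold. The low end came from the UNC0642 experiment. On a scale common to all 22 retinas, *Nrl* averaged 185 CPM, counts scaled to library size, in its 2 controls, against 455 in the Romidepsin, 557 in the UNC1999 and 559 in the DZNep controls. *Esrrb* averaged 68.9 CPM in the UNC0642 controls and 157, 231 and 188 CPM in those 3 sets, and *Nr2e3* 126 CPM against 234, 244 and 279 CPM. *Rorb* hardly differed, with 168 CPM against 198, 185 and 207 CPM. Each treatment was therefore read against its own controls.

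**Figure D1:**
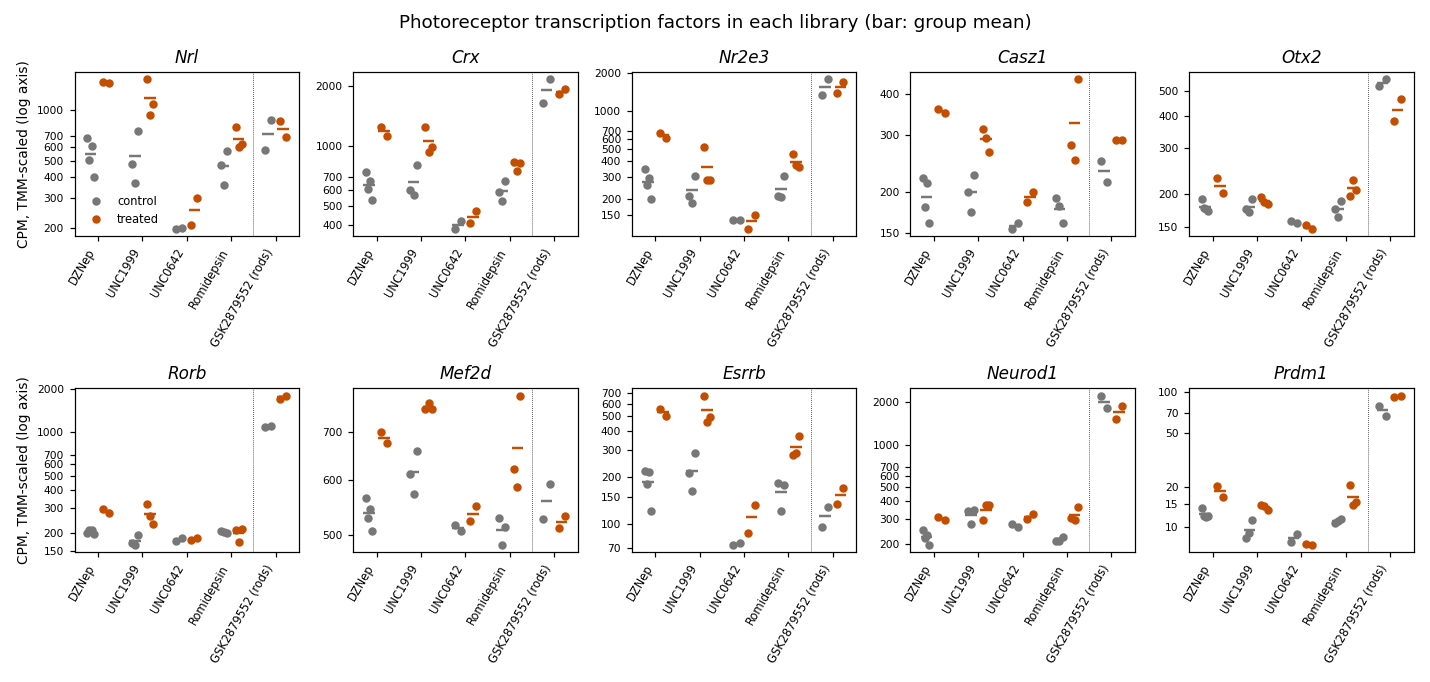
Expression of each factor in every library, as CPM scaled by edgeR's TMM factors within an experiment, on a log axis that differs between panels. Grey points are controls, orange points treated samples and bars group means. With DZNep both treated retinas lie above all 4 controls for all 10 genes, and the 2 UNC0642 controls have the lowest *Nrl*, *Crx*, *Nr2e3* and *Esrrb* among the control retinas.

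With DZNep all 10 factors were higher than in the controls. The 3 largest increases were those of *Esrrb*, *Nrl* and *Nr2e3*, at 2.85-fold, 2.64-fold and 2.34-fold, and the 2 smallest those of *Otx2*, at 1.21-fold, and *Mef2d*, at 1.28-fold. All 10 passed edgeR's quasi-likelihood test at a Benjamini-Hochberg adjusted p under 0.05, with adjusted p-values from 0.000751 to 0.0164, against 12.9% of the 16477 tested genes called higher in this comparison. The treated retinas lay above every control for all 10, as they did for 24.4% of all genes. The median log2 fold change was 0.73 for the 10 factors and -0.00 for all genes tested. Whole retina was measured, so a change in the number of rods and a change in the RNA of each rod cannot be told apart in these values.

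Of the factors that act early in the lineage, *Otx2* was measured at 191, 176, 176 and 172 CPM in the controls and at 230 and 202 CPM with DZNep. The treated values began just above the highest control, and the log2 fold change of 0.27 ± 0.06 (SE) had an adjusted p of 0.0164 in edgeR's quasi-likelihood test. *Prdm1* stood at 14.0, 12.2, 11.9 and 12.2 CPM in the controls and 20.4 and 16.7 CPM in the treated retinas (log2 fold change 0.58 ± 0.10, edgeR adjusted p = 0.00606). *Neurod1*, a basic helix-loop-helix factor that photoreceptors need to survive, stood at 252, 221, 232 and 197 CPM and at 309 and 294 CPM. Its groups were apart by a wider margin than those of *Otx2*, with a log2 fold change of 0.42 ± 0.08 (edgeR adjusted p = 0.00898). *Rorb* was at 198, 209, 211 and 196 CPM in the controls and 292 and 276 CPM with DZNep. The controls of *Rorb* were the tightest of the 10, and its modest log2 fold change of 0.48 ± 0.05 had the lowest adjusted p of the set, 0.000751 (edgeR).

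*Nrl*, the determinant of rod fate, rose from 677, 506, 611 and 400 CPM to 1463 and 1434.5 CPM, a log2 fold change of 1.40 ± 0.17 (edgeR adjusted p = 0.00117). Its target *Nr2e3* rose from 345, 259, 291 and 202 CPM to 673 and 610 CPM, by 1.23 ± 0.16 on the log2 scale (edgeR adjusted p = 0.00165). Both treated retinas held far more than any control for these genes, and the lowest control of each was the same library, replicate 4. *Esrrb*, an orphan nuclear receptor of rods that supports their energy supply, rose from 220, 182, 217 and 122 CPM to 555 and 498 CPM, by 1.51 ± 0.19 (edgeR adjusted p = 0.00134). These 3 genes were the members above 1 on the log2 scale, a size that, with the same test, 1.02% of all genes reached on the higher side.

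*Crx*, the homeodomain activator of rod and cone genes, was measured at 743, 610, 669 and 535 CPM in controls and 1246 and 1117 CPM with DZNep (log2 fold change 0.89 ± 0.11, edgeR adjusted p = 0.00141). *Casz1*, a zinc finger factor of retinal progenitors and maturing rods, was at 221, 180, 213 and 160 CPM and at 360 and 350 CPM (0.88 ± 0.11, edgeR adjusted p = 0.00135). *Mef2d*, a MADS-box factor that binds photoreceptor enhancers together with CRX, was at 565, 530, 545 and 508 CPM and at 700 and 675 CPM (0.36 ± 0.06, edgeR adjusted p = 0.00345). All 3 had treated values clear of the controls, by a smaller step for *Mef2d* than for the other two.

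Leaving out treated replicate 1 left 7 members called, since *Otx2*, *Neurod1* and *Prdm1* then had edgeR adjusted p-values of 0.178, 0.0924 and 0.0964. Without any other library of this experiment all 10 remained called.

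**Figure D2:**
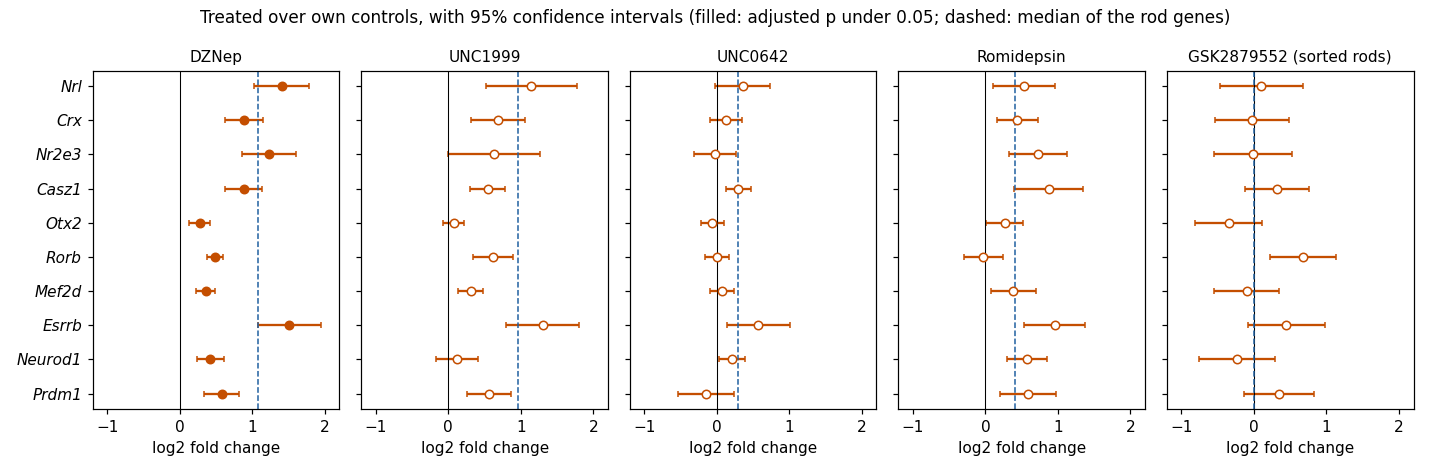
Log2 fold change of each factor, treated over its own controls, with 95% confidence intervals from edgeR's quasi-likelihood fit. Filled points passed an adjusted p under 0.05 and open points did not, and the dashed blue line is the median of 24 rod genes in the same comparison. All 10 points are filled with DZNep and none in the other 4 experiments.

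With UNC1999 *Esrrb* and *Nrl* again had the 2 largest fold changes, yet none of the 10 factors reached an adjusted p under 0.05 with the quasi-likelihood test, where 0.501% of the 15775 tested genes were called higher. All 10 log2 fold changes were above 0, with a median of 0.59 against -0.00 for all genes, and 7 had an unadjusted p under 0.05, on the higher side as for 11.8% of all genes. For those 7, all but *Nr2e3*, *Otx2* and *Neurod1*, every treated retina lay above every control, which held for 13.9% of all genes. The likelihood ratio test of edgeR and DESeq2 each called 7 of the 10. Among all 15775 genes, increases that passed numbered 839 and 785 in these tests, and decreases 802 and 671. The quasi-likelihood test also called 7 of the 10 when control replicate 3 was left out. In that fit 1338 increases and 1369 decreases passed among 16107 genes, where the full fit had 79 and 16.

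*Esrrb* was measured at 213, 163 and 285 CPM in the UNC1999 controls and 677, 459 and 492 CPM in the treated retinas. The groups were apart, and the log2 fold change was 1.30 ± 0.22 (edgeR adjusted p = 0.0514). *Nrl* was at 480, 371 and 748 CPM and at 1516, 935 and 1081 CPM, with a log2 fold change of 1.14 ± 0.27 (edgeR adjusted p = 0.0679). *Crx* was at 600, 566 and 806 CPM and at 1247, 931 and 983 CPM (0.68 ± 0.16, edgeR adjusted p = 0.0676). For these 3 genes control replicate 3 was the highest control and treated replicate 1 the highest treated retina. *Nr2e3* was at 210, 184 and 307 CPM and at 519, 283 and 282 CPM, so its treated retinas overlapped that control, with a log2 fold change of 0.63 ± 0.27 (edgeR adjusted p = 0.214). Without control replicate 3 the edgeR adjusted p was 0.00245 for *Esrrb*, 0.00432 for *Nrl* and 0.00495 for *Crx*, and stood at 0.0549 for *Nr2e3*, whose log2 fold change was then 0.87. Without treated replicate 1 that of *Nr2e3* was 0.28 (edgeR adjusted p = 0.487).

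*Rorb* was at 171, 165 and 194 CPM in these controls and at 318, 264 and 233 CPM with UNC1999 (0.62 ± 0.12, edgeR adjusted p = 0.0535). *Casz1* was at 200, 174 and 226 CPM and at 313, 293 and 266 CPM (0.54 ± 0.10, edgeR adjusted p = 0.0535). *Prdm1*, the rarest transcript, was at 8.37, 9.17 and 11.3 CPM and at 14.7, 14.5 and 13.5 CPM (0.56 ± 0.13, edgeR adjusted p = 0.0657). All treated values of these 3 genes lay above their controls, with little spread among the treated *Prdm1* values. *Mef2d* also stood apart, at 611, 573 and 659 CPM against 756, 771 and 756 CPM (0.31 ± 0.07, edgeR adjusted p = 0.0686). *Otx2* and *Neurod1* were the members with the smallest values, with log2 fold changes of 0.07 ± 0.06 and 0.12 ± 0.12, and their groups overlapped.

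With Romidepsin the median log2 fold change of the 10 factors was 0.56, against -0.01 for all 16049 genes tested, and again none passed the quasi-likelihood test, where 0.573% of all genes were called higher. By unadjusted p under 0.05, 9 of the 10 were higher, as were 9.92% of all genes, and for these 9 the groups did not overlap, as for 13.5% of all genes. *Rorb* was the member outside that count. The likelihood ratio test called 4 of the 10, *Esrrb*, *Casz1*, *Nr2e3* and *Neurod1*, and DESeq2 called 6. Among all 16049 genes, increases that passed numbered 657 and 597 in these tests, and decreases 528 and 477. One edgeR quasi-likelihood fit of all 22 retinas called 8, all but *Nrl* and *Rorb*. In that fit 1540 increases and 1447 decreases passed among 17274 genes.

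*Esrrb* was at 184, 121 and 178 CPM in the Romidepsin controls and at 280, 289 and 368 CPM in the treated retinas (0.96 ± 0.19, edgeR adjusted p = 0.0571). *Casz1* was at 192, 181 and 161 CPM and at 279, 252 and 445 CPM, with a log2 fold change of 0.87 ± 0.21 (edgeR adjusted p = 0.0799). Treated replicate 3 had by far the highest *Casz1*, and without it the log2 fold change was 0.58 (edgeR adjusted p = 0.179). The same retina had the highest *Mef2d*, at 790 CPM beside 621 and 586 CPM and controls of 529, 485 and 513 CPM. *Neurod1* was at 210, 211 and 224 CPM and at 302, 294 and 366 CPM (0.58 ± 0.12, edgeR adjusted p = 0.0656), and its controls lay close together, well below the treated values. *Nr2e3* was at 210, 206 and 302 CPM and at 455, 374 and 357 CPM (0.72 ± 0.18, edgeR adjusted p = 0.0814). *Nrl* was at 470, 358 and 571 CPM and at 796, 603 and 629 CPM (0.54 ± 0.19, edgeR adjusted p = 0.167), where the lowest treated retina was only slightly above the highest control. *Crx*, *Prdm1* and *Otx2* had log2 fold changes of 0.44 ± 0.12, 0.59 ± 0.17 and 0.27 ± 0.11. *Rorb* was at 208, 202 and 199 CPM and at 211, 174 and 212 CPM, with treated values on both sides of the controls and a log2 fold change of -0.03 ± 0.12 (95% confidence interval -0.30 to 0.24).

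With UNC0642 no member passed, and no gene of 16321 did (0% called, with 2407 genes at an unadjusted p under 0.05). The likelihood ratio test called 98 genes higher and 47 lower, DESeq2 107 and 65, and neither called a member. The median log2 fold change of the 10 was 0.10. At an unadjusted p under 0.05 there were 3 members, on the higher side as for 7.95% of all genes. *Esrrb* was at 72.9 and 75.1 CPM in the controls and 87.6 and 133 CPM in the treated retinas, *Casz1* at 154 and 161 CPM and at 187 and 200 CPM, and *Neurod1* at 275 and 263 CPM and at 297 and 326 CPM. Both treated values lay above both controls for these 3, with log2 fold changes of 0.57 ± 0.18, 0.30 ± 0.07 and 0.21 ± 0.08 and edgeR adjusted p-values of 0.304, 0.299 and 0.319. *Nrl* was at 198 and 200 CPM and at 209 and 300 CPM (0.35 ± 0.16, edgeR adjusted p = 0.351), so that its mean rested on treated replicate 2. Without that library the log2 fold changes of *Nrl* and *Esrrb* were 0.073 and 0.24, and without treated replicate 1 they were 0.59 and 0.84. In all, 5 members were apart on the higher and 2, *Otx2* and *Prdm1*, on the lower side, shares that were 26.9% and 25.2% over all genes. With 2 libraries in each group the interval of *Rorb*, -0.16 to 0.17 on the log2 scale around 0.00, was among the narrowest of the set and that of *Prdm1*, -0.54 to 0.24 around -0.15, among the widest.

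Differences between the treatments were tested as differences of 2 effects, each treated minus its own controls, in one edgeR quasi-likelihood fit of all 22 retinas. Of 60 tests, 10 members in 6 pairs of treatments, 1 passed an adjusted p under 0.05. The effect on *Rorb* was greater with UNC1999 than with Romidepsin by 0.65 ± 0.13 on the log2 scale (95% confidence interval 0.37 to 0.92, edgeR adjusted p = 0.0105), where 5.11% of 17274 genes were called between these treatments. The *Rorb* effects in that fit were 0.62 with UNC1999, 0.49 with DZNep, 0.01 with UNC0642 and -0.02 with Romidepsin. *Rorb* with DZNep minus Romidepsin differed by 0.51 ± 0.14 (edgeR adjusted p = 0.102) and with UNC1999 minus UNC0642 by 0.62 ± 0.15 (edgeR adjusted p = 0.184), and neither passed. *Neurod1* had the opposite order, with an effect lower with UNC1999 than with Romidepsin by 0.46 ± 0.16 (log2 difference -0.46, edgeR adjusted p = 0.0968). Between the 2 EZH2 inhibitors no member's difference reached an unadjusted p under 0.05, and for *Nr2e3* the interval of DZNep minus UNC1999 ran from -0.11 to 1.32 on the log2 scale. DZNep minus UNC0642 had 9 members at an unadjusted p under 0.05, the widest being *Nr2e3* at 1.26 ± 0.38, with edgeR adjusted p-values of 0.190 or more. All 9 were on the side of DZNep, as were 7.66% of all genes at that unadjusted threshold, and 0.0232% of all genes were called in that pair. Over all genes 0.00579% were called for DZNep minus UNC1999, 0.289% for DZNep minus Romidepsin, 0.0116% for UNC1999 minus UNC0642 and 0.0174% for UNC0642 minus Romidepsin. UNC1999 and the other experiments were in different library series, each with its own controls.

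Against the genes of the rod, the increase of the factors was uneven. With DZNep all 24 listed rod genes were called higher, the median log2 fold change being 1.08, and *Esrrb*, *Nrl* and *Nr2e3* were above that median by 0.43, 0.32 and 0.15, while *Otx2*, *Mef2d*, *Neurod1* and *Rorb* were 0.60 to 0.80 below it. *Guca1a*, *Pdc* and *Guca1b*, which regulate guanylate cyclase or bind transducin, had the smallest p-values, at log2 fold changes of 0.94, 1.50 and 1.50. With UNC1999 all 24 rod genes were above 0 with a median of 0.96, 23 had an unadjusted p under 0.05, and 1 was called by the quasi-likelihood test, *Abca4* (log2 fold change 1.01), the flippase of the outer segment discs. By the likelihood ratio test 23 of them were called and by DESeq2 22, and the quasi-likelihood test called 24 without control replicate 3 and 0 without any other library. With Romidepsin the rod median was 0.41 with none called by the quasi-likelihood test, 14 genes at an unadjusted p under 0.05, 8 called by the likelihood ratio test and 9 by DESeq2, and the median of the 10 factors, 0.56, was above it. With UNC0642 the rod median was 0.29, with none called, 8 at an unadjusted p under 0.05, and 2 called by DESeq2.

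Among 19 measured partners and relatives of these factors, 9 were called higher and 1 lower with DZNep. The smallest p-values were those of *Pias3*, the SUMO ligase that joins the rod factors at cone promoters (log2 fold change 0.53), *Sp4*, a zinc finger activator that binds CRX (0.73), and *Rora*, a receptor related to RORB (0.37). *Nr1d1*, a clock repressor that works with NR2E3, was the one called lower (-0.25). The median of the partners was 0.23. With UNC1999 *Sp4* was the 1 partner called (0.52, edgeR adjusted p = 0.0428) and the median was 0.15, and with Romidepsin none was called, the median was 0.06, 4 had an unadjusted p under 0.05 and neither the likelihood ratio test nor DESeq2 called any. With UNC0642 the median of the partners was -0.05, with 6 of 19 above 0, none called and 5 at an unadjusted p under 0.05. Without treated replicate 1 the partners called with DZNep numbered 6, and without control replicate 3 those called with UNC1999 numbered 7.

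Transcription factors of other retinal neurons and of glia had the other sign. With DZNep the median log2 fold change of 30 such genes was -0.20. The smallest p-values were those of *Sox9* (-0.58), of Müller glia, *Neurod2* (-0.42), of amacrine cells, and *Lhx4* (-0.24), of bipolar cells and cones. Whole retina was measured, so a change in the share of a cell type and a change in the RNA of each cell cannot be told apart here either. None of the 30 was called higher and 10 were called lower, as were 1601 of all 16477 genes. This count rested on single libraries, with 19 called when control replicate 1 was left out, and 2 and 4 when treated replicates 1 and 2 were, in turn. Without control replicate 1 the calls over all 16336 genes tested were 2361 higher and 2176 lower. The medians of the 30 factors were -0.15 with UNC1999, -0.11 with UNC0642 and -0.27 with Romidepsin. None was called by the quasi-likelihood test in these 3, and 13, 5 and 14 genes had an unadjusted p under 0.05. The likelihood ratio test called 5 of the 30 with UNC1999 and 6 with Romidepsin, and DESeq2 4 and 6. Cone genes, which NRL and NR2E3 are known to hold down in rods, included 1 called higher, *Cnnm4* (0.47), and 3 called lower, *Gnb3* (-0.54), *Arr3* (-0.84) and *Pde6c* (-0.61), of 12 with DZNep. Of these cone genes 7 were called without control replicate 1 and 2 without treated replicate 1. With UNC1999 the cone median was 0.32, with 10 of 12 above 0, 3 at an unadjusted p under 0.05 and none called, but 9 called without control replicate 3. With UNC0642 it was -0.23, with 8 at an unadjusted p under 0.05, none called by the quasi-likelihood test and 4 called by the likelihood ratio test and by DESeq2. With Romidepsin the cone median was -0.72, 10 had an unadjusted p under 0.05 and *Cnnm4*, at 0.82, was the 1 gene called, while 8 were called without treated replicate 1, 7 by the likelihood ratio test and 6 by DESeq2. Of 12 bipolar markers 7 were called lower with DZNep, among them *Grm6* (-0.57), *Scgn* (-0.44) and *Trpm1* (-0.34), and 1, *Grm6*, with Romidepsin (-0.98). The bipolar count with DZNep was 10 and 4 when control replicates 1 and 2 were left out in turn, and 1 and 3 when treated replicates 1 and 2 were. With UNC1999 the bipolar median was -0.08, with 5 of 12 above 0, 5 at an unadjusted p under 0.05 and none called.

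Markers of the retinal pigment epithelium (RPE), a tissue that also expresses *Otx2* and can come along with a dissected retina, differed in level between treated and control retinas. With DZNep 6 of 12 were called higher and 1, *Rlbp1*, lower, and with UNC1999 7 were called higher, with median log2 fold changes of 1.16 and 1.70. Those called numbered 4 without treated replicate 2 with DZNep, and 4 without control replicate 2 or treated replicate 2 with UNC1999. *Rgr* went from 18.1 to 73.4 CPM with DZNep and from 27.5 to 118 CPM with UNC1999, and *Rpe65*, the isomerase of the visual cycle, from 6.18 to 24.1 and from 7.39 to 38.1 CPM. The summed level of the 12 markers was 717 to 878 CPM in the DZNep controls and 685 to 835 CPM in the treated retinas, *Rlbp1*, which Müller glia also express, making up most of it, and it was 470 to 686 and 900 to 1090 CPM with UNC1999. None of the 12 was at 0 in all libraries. With UNC0642 the RPE median was 0.41, none was called by the quasi-likelihood test and 3 had an unadjusted p under 0.05, *Rgr*, at 17.6 CPM in the controls and 47.2 CPM in the treated retinas (log2 fold change 1.43), *Rdh5* (1.08) and *Lrat* (1.05). Of the 12, 1 was called by the likelihood ratio test and 0 by DESeq2, and by the quasi-likelihood test 3 without control replicate 2 and 2 without control replicate 1. With Romidepsin the RPE median was -0.75 with none called by the quasi-likelihood test, 8 at an unadjusted p under 0.05, and 7 called by the likelihood ratio test and by DESeq2. Their part in the values of *Otx2* and the other factors was not tested.

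**Figure D3:**
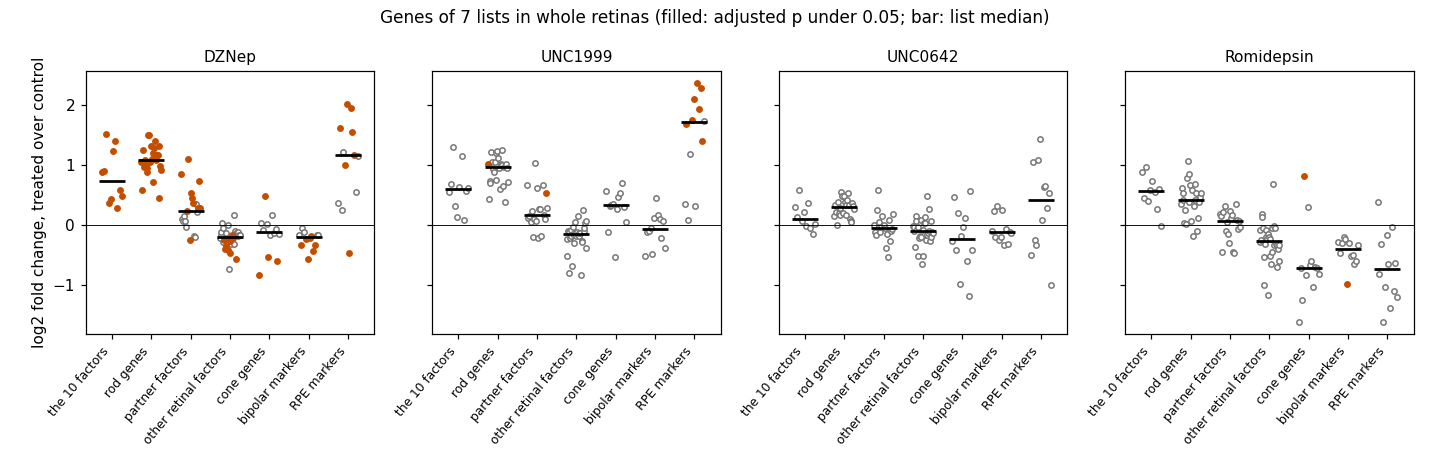
Log2 fold changes, treated over own controls, of the genes of 7 lists in the 4 retina experiments, where each point is a gene, filled if its adjusted p was under 0.05, and each bar the median of the list. The 10 factors and the rod genes lie above 0 with DZNep and UNC1999, with medians of 0.73 and 1.08 and of 0.59 and 0.96, while the other retinal factors have medians of -0.20 and -0.15.

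In sorted rods the members had another order of abundance. The mean of the 2 control libraries was 735 RPKM for *Neurod1*, 602 for *Crx*, 465 for *Nr2e3*, 288 for *Nrl*, 158 for *Otx2*, 99.0 for *Rorb*, 93.6 for *Mef2d*, 18.9 for *Casz1*, 18.4 for *Esrrb* and 13.4 for *Prdm1*. Against the 12 control retinas 7 members were called higher, as were 38.3% of 17829 genes. In log2 units *Neurod1* was higher by 3.07 ± 0.17, *Prdm1* by 2.85 ± 0.16, *Nr2e3* by 2.84 ± 0.26, *Rorb* by 2.60 ± 0.08, *Crx* by 1.78 ± 0.21 and *Otx2* by 1.71 ± 0.10, and both rod libraries lay above all 12 retinas for these 6, as for 35.4% of all genes. *Casz1* was called with 0.41 ± 0.16 (edgeR adjusted p = 0.0227) and its groups overlapped. *Nrl*, whose promoter marked the sorted cells, differed by 0.72 ± 0.39 (edgeR adjusted p = 0.0958), *Mef2d* by 0.13 ± 0.13 and *Esrrb* by -0.51 ± 0.43, and none of these passed. For comparison, 23 of 24 rod genes were called higher with a median of 1.92, and 29 of 30 factors of other retinal cells lower with a median of -4.42. Over all 17829 genes 8063 were called lower, and the median was -0.28.

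**Figure D4:**
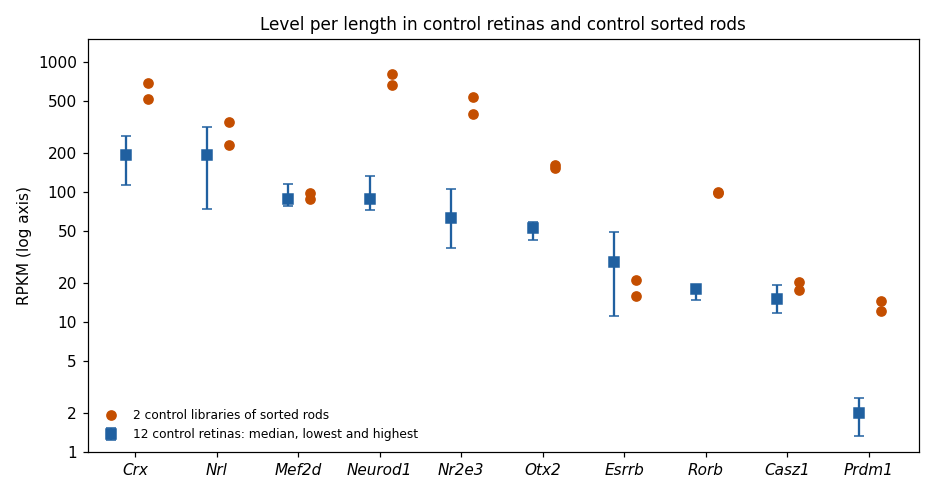
Level of each factor per exon length (RPKM, log axis) in the 12 control retinas, as the median with the lowest and highest value, and in the 2 control libraries of sorted rods, ordered by the retina median. *Neurod1* has 735 RPKM in the rods against 88.0 in the retinas, and *Esrrb* has 18.4 RPKM in the rods against 29.2 in the retinas.

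These differences join the sort with other differences between the libraries. The rods were dissociated, carried the EGFP transgene and were sequenced in a separate series, and the methods of the study name a full-length amplification kit for them where the labels name the stranded mRNA kit used for the retinas, so cell type, transgene and library preparation cannot be told apart. Markers of Müller glia, the RPE and bipolar cells had lower sums in the rod libraries, whereas cone genes had higher ones. The summed level of 10 Müller glia markers was 7064 to 10725 CPM in the retinas and 678 to 1158 CPM in the rods, that of 12 RPE markers 491 to 900 and 41.7 to 54.0 CPM, and that of 12 bipolar markers 2008 to 2694 and 597 to 1023 CPM, while 12 cone genes were at 1846 to 3237 and 3636 to 5560 CPM.

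GSK2879552 was compared within the sorted rods, and no member passed, as no gene of 14478 did with the quasi-likelihood test (0% called). At an unadjusted p under 0.05 there were 711 genes, the likelihood ratio test called 46 genes higher and 25 lower and DESeq2 31 and 17, none of them a member. *Rorb* was at 1090 and 1103 CPM in the control rods and 1703 and 1802 CPM in the treated rods. It was the 1 member with an unadjusted p under 0.05 in edgeR's test, 0.00917, as 2.78% of all genes on the higher side were, and its log2 fold change was 0.68 ± 0.20 (adjusted p = 0.894). The treated values of *Rorb* were well above controls that were nearly equal. *Otx2* had the other sign, at 519 and 552 CPM and at 380 and 462 CPM, with groups apart and a log2 fold change of -0.35 ± 0.20 (edgeR adjusted p = 0.987).

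*Nrl* was at 577 and 866 CPM in the control and 854 and 694 CPM in the treated rods, *Crx* at 1648 and 2158 CPM and at 1817 and 1922 CPM, and *Nr2e3* at 1336 and 1793 CPM and at 1399 and 1704 CPM. The treated values of these 3 fell between the controls, and the log2 fold changes were 0.10, -0.03 and -0.01, with 95% confidence intervals of -0.47 to 0.67, -0.54 to 0.49 and -0.55 to 0.52. *Esrrb*, *Prdm1* and *Casz1* were apart on the higher side with log2 fold changes of 0.45 ± 0.23, 0.34 ± 0.21 and 0.32 ± 0.19, so that 4 members were apart in that direction, against 15.9% of all genes, and 1 in the other, against 17.3%. *Neurod1* and *Mef2d* overlapped, at -0.24 ± 0.23 and -0.10 ± 0.20. The median was 0.04 over the members and -0.00 over the 24 rod genes. Cone genes had a median of -0.92 in these rods, with none called by the quasi-likelihood test, 9 of 12 at an unadjusted p under 0.05 and 2 called by the likelihood ratio test and by DESeq2.

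The genes that tracked each factor most closely over the 22 retinas were found from log2 CPM less the mean of the controls of the same experiment, a measure that treated and control retinas share, so the correlations are descriptive. Among the genes most like *Nrl* were *Prph2* and *Rom1*, of the outer segment discs (Pearson's r = 0.990 and 0.988 over 22 libraries). *Crx* was most like *Osbp2*, *Prph2* and *Optn* (0.990, 0.984 and 0.982), *Esrrb* like *Pdc*, *Gm16338* and *Whrn* (0.982, 0.974 and 0.973), *Nr2e3* like *Wdtc1*, *Adipor1* and *Sema3f* (0.982, 0.969 and 0.964) and *Casz1* like *Rbp3*, *March1* and *Kif3b* (0.969, 0.967 and 0.966). The nearest genes of *Mef2d* were *Frmpd1*, *Pde8b* and its fellow member *Casz1* (0.976, 0.976 and 0.966). For *Rorb* they were *Tmem229b*, *Sgtb* and *Taok3* (0.960, 0.954 and 0.944), for *Neurod1* *Zfyve28*, *Sec22c* and *Mak* (0.977, 0.960 and 0.959), for *Otx2* *Zfp775*, *Nxnl2* and *Tfip11* (0.928, 0.913 and 0.912) and for *Prdm1* *Ccdc21*, *Gnb5* and *Kdm5b* (0.939, 0.917 and 0.916). None of these nearest genes was among the 24 listed rod genes for *Nr2e3*, *Casz1*, *Otx2*, *Rorb*, *Mef2d*, *Neurod1* or *Prdm1*. The list does not hold every photoreceptor gene, and whether others are among these nearest genes was not tested. The members just named still correlated with the mean of the 24 rod genes over the same libraries. Pearson's r was 0.89 for *Nr2e3*, 0.826 for *Rorb*, 0.792 for *Prdm1*, 0.752 for *Mef2d*, 0.728 for *Casz1*, 0.613 for *Otx2* and 0.51 for *Neurod1*. For *Nrl*, *Crx* and *Esrrb* it was 0.996, 0.973 and 0.941.

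On build NCBIM37 *Nrl* lies at chr14:56137815-56143818 (minus strand, 4 exon blocks), *Crx* at chr7:16451296-16465317 (minus, 5), *Nr2e3* at chr9:59790578-59808466 (minus, 4), *Casz1* at chr4:148178538-148328998 (plus, 25) and *Otx2* at chr14:49277354-49287319 (minus, 7). *Rorb* lies at chr19:19005095-19185686 (minus, 12), *Mef2d* at chr3:87946294-87976008 (plus, 12), *Esrrb* at chr12:87702067-87862578 (plus, 10), *Neurod1* at chr2:79292678-79296908 (minus, 2) and *Prdm1* at chr10:44156983-44248307 (minus, 9). Exons of other annotated genes overlapped those of 4 members, *Nr2e3* by 61 bases (*Gm15507*), *Casz1* by 122 (*Gm13205*, opposite strand), *Mef2d* by 527 (*1700113A16Rik*, opposite strand) and *Neurod1* by 355 (*Cerkl*, same strand, and *Gm17325*). Reads in these stretches may be split or left out by the counting, and for *Neurod1* the overlapping genes held 51847 reads over all 26 libraries against 225427 of its own.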

How the data were processed

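According to the labels and the methods of the study, the authors trimmed the reads with BBDuk, aligned them to NCBIM37 (mm9, Ensembl genes) with HISAT2 2.2.1 and counted them with HTSeq 0.11.2; whether strand was used in counting is not given in the sources used here. The deposited values are raw read counts of 37991 genes in 26 libraries, all used. Symbols and exons came from GENCODE M1 on the same build. No 2 replicates were copies of each other (23 pairs, chi-square per gene at least 3.89).

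Groups were taken from the labels, whose replicates are biological. Genes were filtered with filterByExpr and normalized by TMM within each comparison in edgeR 4.0.16 (R 4.3.3, limma 3.58.1). The quasi-likelihood F test replaced the likelihood ratio test of the study, and p-values were adjusted by Benjamini-Hochberg over all genes tested. Genes below 0.05 after adjustment were called. CPM are TMM-scaled, RPKM use the union of exons, and correlations use log2 CPM with a prior count of 2. Groups were apart when every treated value lay above, or every one below, all controls.

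The members and lists (rod, cone, partner factor, other retinal factor and cell type lists; *Samd11* had no match) were chosen with earlier results of these data known. Named genes are the members, in each list described the 3 genes with the smallest p-values and every gene of a count of 5 or fewer, and the 3 genes most correlated with each member, of which 1 is not reported here. Further fits used the likelihood ratio test, then DESeq2 1.42.0, normalization by RLE, no filter, at least 10 counts in every library, an absolute log2 fold change above 1, a replicate block, one fit of all 22 retinas and leaving out each library. The tests were tested on simulated data. Sequencing depth sets the counting error of every value, which is smallest for the members with the most reads. The SE of the log2 fold changes did not follow the number of reads. With DZNep it was 0.17 for *Nrl*, with at least 10475 reads per library, and 0.10 for *Prdm1*, with at least 225. With UNC0642 it was 0.16 for both.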

Additional observations from a re-analysis of the deposited data

Results flagged for a closer look

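*Prdm1* in control replicate 1 of the DZNep experiment, at 14.0 CPM, lay apart from the other 3 controls, at 12.2, 11.9 and 12.2 CPM. Its gap to the nearest control, divided by the range of the group, was 0.884, above Dixon's 95% critical value for 4 samples. Chance flags about 1 in 20 groups, and 10 genes were examined in this group, the one group of 4 or more. Without this control all 10 factors remained called with DZNep.

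The effect on *Rorb* differed between UNC1999 and Romidepsin by 0.65 on the log2 scale, by a test of the difference itself in one edgeR fit of 22 retinas (adjusted p = 0.0105). All 3 UNC1999 retinas were above their 3 controls, and the 3 Romidepsin retinas lay on both sides of theirs. The difference was between 0.52 and 0.77 in all 22 fits that left out 1 library, and it passed the adjusted threshold in each of them, though not under every other alternative run.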

How the results depend on the processing

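The direction of all 10 factors with DZNep, with UNC1999, and of 9 with Romidepsin was the same under every alternative run, and the count of called factors was what moved. With DZNep, 10 were called under each other test, normalization and filter and 3 when an absolute log2 fold change above 1 was also asked, and leaving out 1 library gave 7 to 10. With UNC1999 the likelihood ratio test, DESeq2, no filter and the fit of all 22 retinas each called 7, and RLE and at least 10 counts in every library each called 1, *Esrrb*, and leaving out 1 library gave 0 to 7, the 7 without control replicate 3. With Romidepsin the likelihood ratio test called 4, DESeq2 6, no filter 4 and the fit of all 22 retinas 8, and leaving out 1 library gave 0 to 3, the 3 without treated replicate 2. With UNC0642, 3 were called with no filter, and leaving out 1 library gave 0 to 0, as it did for GSK2879552. Leaving out 1 library gave 6 to 7 for sorted rods against retinas, where the loss of either rod library ended the call of *Casz1*. Of the differences between treatments, 3 were called by the likelihood ratio test and by DESeq2 and 0 with the fold threshold, and leaving out 1 library gave 1 to 3. Calls over all genes moved too. With DZNep the fit of all 22 retinas called 963 higher and 370 lower of 17274 genes. The main fit had called 2133 and 1601 of 16477, and no filter 2119 and 1679 of 23711. With UNC1999 no filter called 533 higher and 491 lower of 22660 genes, and the fit of all 22 retinas 717 and 728 of 17274. With Romidepsin no filter called 410 and 260 of 23466, and the fit of all 22 retinas 1540 and 1447 of 17274. With UNC0642 no filter called 443 and 609 of 23117. The cause of these shifts was not tested.

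Values near 0 changed sign. With UNC0642 *Rorb* was -0.00252 with DESeq2, -0.00255 with RLE and -0.00538 with no filter, and leaving out 1 library gave -0.034 to 0.039 for *Rorb* and -0.22 to 0.14 for *Nr2e3*. With Romidepsin *Rorb* ran from -0.074 to 0.060. In sorted rods with GSK2879552 *Nr2e3* was 0.000147 with at least 10 counts in every library, and leaving out 1 library gave -0.16 to 0.42 for *Nrl*, -0.21 to 0.18 for *Crx* and -0.21 to 0.21 for *Nr2e3*. Against retinas, *Mef2d* in sorted rods was -0.043 with at least 10 counts in every library and ran from -0.021 to 0.21 without 1 library.

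Replicate numbers were shared between groups, but nothing in the labels pairs the mice. The deviations of same-numbered libraries from their group means did not correlate in every pair (r = 0.206, -0.048 and -0.277 for Romidepsin and -0.278, 0.23 and -0.0403 for UNC1999). For UNC0642 r was 0.213 in both same-numbered pairs and -0.213 in the others. That is a single value mirrored, since with 2 libraries in a group their deviations are opposite. With a replicate block 1 factor, *Esrrb*, was called with UNC0642, where 244 of 16321 genes were called higher and 345 lower. In the block fits 0 of the differences between treatments were called, and that of *Rorb* had an edgeR adjusted p of 0.0809. *Otx2* with DZNep then had an edgeR adjusted p of 0.064.

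The lowest count of a member in a retina was 102 reads, of *Prdm1*, and with 2 libraries in each group the 95% interval of its log2 fold change with UNC0642 ran from -0.54 to 0.24.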

Other observations

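Other cell type lists gave these values beside the 10 factors. They too are values of whole retina, in which the share of a cell type and the RNA of each cell cannot be told apart. The 12 microglia markers had median log2 fold changes of -0.75 with DZNep, where 1 was called lower and 10 had an unadjusted p under 0.05, and of -1.10 with UNC1999, -0.65 with UNC0642 and -0.72 with Romidepsin, where none was called by the quasi-likelihood test and 11, 7 and 7 had an unadjusted p under 0.05. The likelihood ratio test called 11, 3 and 5 of them in these 3 comparisons, and DESeq2 as many. With DZNep these tests called 6 and 4, and the quasi-likelihood test called 4, 3 and 8 when control replicates 1, 2 and 4 were left out in turn, and 0 without any other library. Without control replicate 3 it called 11 with UNC1999. The 10 Müller glia markers had a median of -0.36 and 7 called lower with DZNep, or 4 called without treated replicate 1. Called lower with DZNep were also 5 of 12 amacrine and ganglion cell markers, 4 of 6 horizontal cell markers and 3 of 8 vascular markers. Their medians were -0.26, -0.35 and -0.15. Of all 16477 genes 1601 were called lower with DZNep. The amacrine and ganglion cell count was 12 without control replicate 1 and 0 or 1 without any other library, and the horizontal cell count was 1 without either treated retina. The summed level of 7 lens markers was 67.7 to 74.9 CPM in the DZNep controls and 47.2 to 135 CPM in the 2 treated retinas. Of the 4 tested, *Cryaa* and *Crybb2* were called higher and *Cryab* lower. *Cryaa* averaged 18.7 CPM (SD 25.9) in the treated retinas and 0.33 CPM in the controls, and *Crybb2* 7.10 CPM (SD 9.75) and 0.46 CPM. With an SD above the mean of 2 retinas, 1 of them held most of these transcripts. The part of lens tissue in the values of the 10 factors was not tested.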
